A study of Homo sapiens with 6 samples.

Results

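The genes described here make, activate, move and remove sialic acid, the acidic sugar that caps many glycans on colon cells. Members were taken by name: every probe set of the deposited table whose RefSeq accession belongs to GNE, NANS, NANP, CMAS, RENBP, SLC35A1, SLC17A5, NEU1, NEU3 or NEU4. This gave 10 probe sets of 9 genes, out of 1259 probe sets and 927 named genes. NEU1 had 2 probe sets, the other 8 genes had 1 each, and NANP was not analysed here because no probe set carried its accession. The rule itself uses names alone, but the family was proposed with earlier results of the same arrays in view, so it is treated as selected on the differences between arrays with and without doxycycline. The values and adjusted p-values of that comparison are given as a description of the members and support nothing on their own.

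All 6 arrays came from HCT116, a colorectal cancer line, and all cells were given activin A. In 3 of them doxycycline was added to switch on wild-type ACVR2 (+DOX/+Activin A), and in the other 3 it was not (-DOX/+Activin A). The series title speaks of a single time point after induction and gives no hours. The titles name ACVR2 alone, whereas the source field names TGFBR2 and AIM2 beside it, and nothing says whether the cells are 1 clone or whether each replicate was its own culture. Every p-value below thus reflects the scatter of these arrays, which may be purely technical. Cells lacking the transgene were not treated with doxycycline, and effects of the drug and of the receptor cannot be told apart. Fewer expressing cells and less RNA per cell cannot be told apart in such bulk samples either.

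Sialic acid is built in the cytosol. GNE turns UDP-GlcNAc into N-acetylmannosamine and phosphorylates it, NANS joins the product to phosphoenolpyruvate, NANP removes the phosphate, and CMAS couples the free sugar to CMP in the nucleus. RENBP interconverts N-acetylmannosamine and N-acetylglucosamine and so can drain the first intermediate. SLC35A1 carries CMP-sialic acid into the Golgi, where sialyltransferases use it. Sialidases cut the sugar off again: NEU1 in lysosomes, NEU3 mainly at the plasma membrane on gangliosides, and NEU4 on internal membranes. Sialin, encoded by SLC17A5, exports the freed sugar from lysosomes for reuse.

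NEU1, NANS and SLC17A5 were the genes whose probe sets all read higher on each array with doxycycline than on each array without it. Their upstream sequences are shown because the results turn on these 3 genes. Each is the 250 bases before the RefSeq gene start, printed 5′ to 3′ along the gene, with capitals marking every E-box (CACGTG), GC-box (GGGCGG) and CCAAT motif on either strand. The windows are chr6:31862822-31863071 on the minus strand for NEU1, chr9:98056482-98056731 on the plus strand for NANS and chr6:73653993-73654242 on the minus strand for SLC17A5, all in GRCh38.p14.
NEU1: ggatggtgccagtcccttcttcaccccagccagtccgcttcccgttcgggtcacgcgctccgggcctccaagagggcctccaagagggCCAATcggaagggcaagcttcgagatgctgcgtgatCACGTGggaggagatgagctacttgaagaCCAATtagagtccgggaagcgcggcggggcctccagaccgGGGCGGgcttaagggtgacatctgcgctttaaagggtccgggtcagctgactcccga
NANS: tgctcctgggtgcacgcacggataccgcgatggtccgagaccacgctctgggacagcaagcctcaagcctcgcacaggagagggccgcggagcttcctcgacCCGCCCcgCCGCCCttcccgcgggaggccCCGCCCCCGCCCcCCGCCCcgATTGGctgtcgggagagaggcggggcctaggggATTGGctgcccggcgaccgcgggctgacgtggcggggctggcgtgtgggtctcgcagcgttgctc
SLC17A5: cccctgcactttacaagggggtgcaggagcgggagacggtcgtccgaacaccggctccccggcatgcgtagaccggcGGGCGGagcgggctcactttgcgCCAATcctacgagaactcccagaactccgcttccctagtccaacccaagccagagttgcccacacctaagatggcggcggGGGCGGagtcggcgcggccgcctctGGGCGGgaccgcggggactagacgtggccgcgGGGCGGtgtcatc

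The 3 windows held both CCAAT and the GC-box, motifs that also occur in windows of other listed genes: CCAAT in 6 and the GC-box in 8 of the 13 windows of the 10 listed genes. CCAAT lay at 2 places in NEU1, 2 in NANS and 1 in SLC17A5, and it occurs in 32.0% of 35116 such windows of RefSeq genes. The GC-box lay at 1 place in NEU1, 5 in NANS and 4 in SLC17A5, against 42.6% of all windows with any. The E-box, a motif of TFEB and related factors, was found 126 to 121 bases before the start of NEU1, in no other of the 13 windows, and in 6.34% of all windows. The SMAD palindrome GTCTAGAC and the ATF/CREB palindrome TGACGTCA were in none of the 13, against 0.182% and 1.65% of all. TATAAA was found only in the CMAS window and in 10.7% of all. The 13 windows cover all 10 listed genes, GNE, NEU3 and NEU4 having 2 starts each. GC content was 63.2% for NEU1, 74.4% for NANS and 69.2% for SLC17A5, where the median window had 58.0%. Windows of the other listed genes ran from 42.0% to 70.4%, with 70.0% in 1 GNE window, 68.8% for RENBP and 56.0% for CMAS. No matches overlapped in the 3 windows printed, and a match is only a description of these letters.

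ACVR2A, the receptor gene meant to be induced, read 8.15, 8.02 and 8.08 for replicates 1, 2 and 3 labelled with doxycycline and 8.25, 8.07 and 8.70 for those without, so its probe set was not higher with doxycycline. Whether its probes lie in the introduced sequence is not known, and every direction below rests on the labels. Replicate 3 without doxycycline had the lowest limma array weight (0.198). Replicate 2 of that group had the next lowest (0.393), in a fit that stopped before full convergence. Without replicate 2 the groups did not overlap in 41.4% of all probe sets, and without replicate 3 in 25.0%. With all 6 arrays the share was 15.8%. Fewer arrays make non-overlap easier, and leaving out any other single array gave 21.4% to 24.5%. A separation that appears without replicate 3 is thus no sign that this array hid it. Values without replicate 3 are given below where they differ in direction, overlap or size. Probe sets of replicate 3 differed from the mean of the other 2 arrays of its group by a median of 0.11 log2 units in size. Probe sets had a median SD of 0.05 with doxycycline and 0.09 without. Values are RMA log2 levels, so 1 unit is a doubling, and array medians ran from 7.61 to 7.65. With limma 0 of 1259 probe sets passed an adjusted p of 0.05 (percent called: 0), and 98 had an unadjusted p under 0.05 (7.78%; 3.26% higher and 4.53% lower with doxycycline). The smallest adjusted p was 0.158. Array weights called 1 probe set, which was no member. Of 12 colon epithelial markers 4 were measured, MUC2, MUC13, MUC17 and LGALS4, with means without doxycycline between 6.80 and 7.30. Lower quartiles of the arrays ran from 6.85 to 6.89, so these 4 lay near or not far above the lower quartile. EPCAM, CDH1 and KRT20 were not analysed here. Of 15 markers of blood, endothelial, fibroblast and nerve cells 10 were measured, at 5.998 to 7.74, with 0 past the threshold and a median difference of -0.01.

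**Figure D1:**
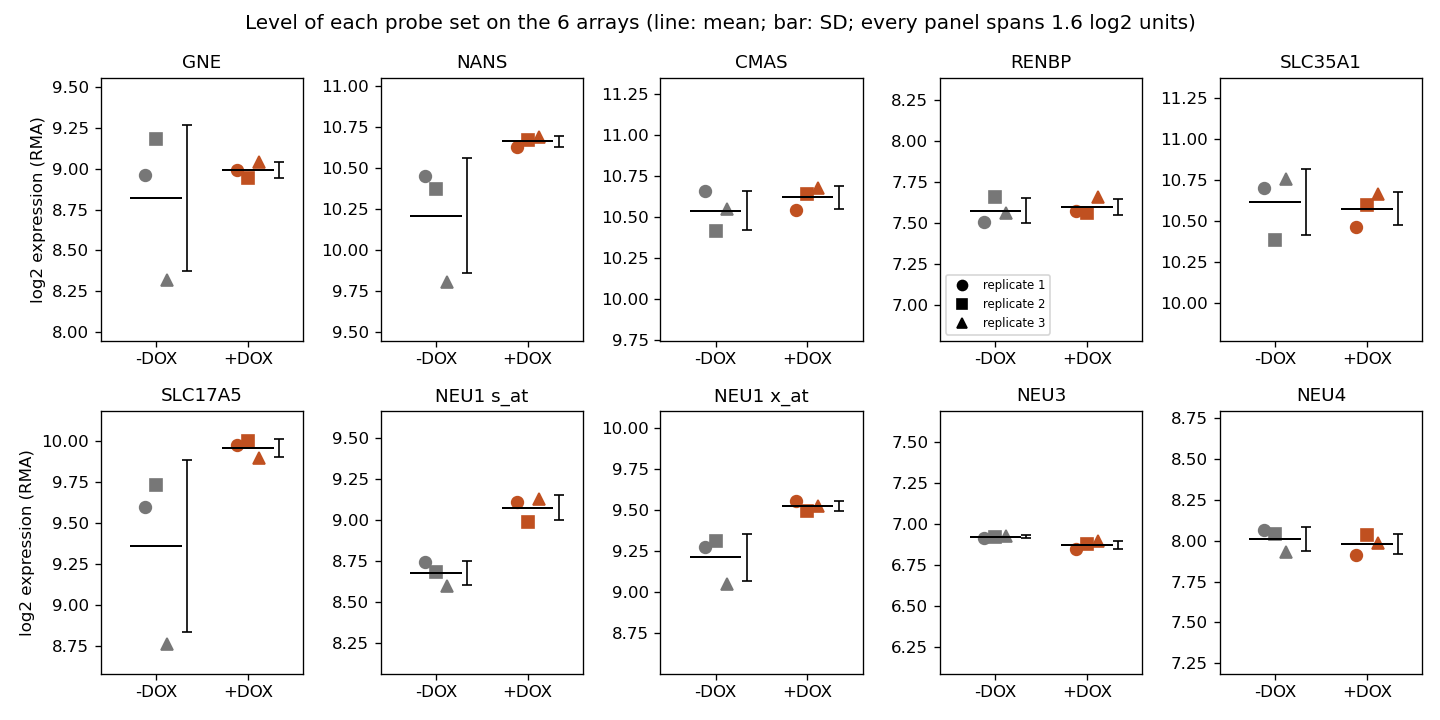
Log2 RMA level (vertical axis) of the 10 probe sets on 3 arrays without (grey) and 3 with doxycycline (orange); symbols give the replicate number, lines the mean and bars the SD, and each panel spans the same height. For NANS, SLC17A5 and both NEU1 probe sets all orange points lie above all grey ones, and in GNE, NANS and SLC17A5 replicate 3 without doxycycline lies far below the rest.

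Of the sialidases, NEU1 read higher with doxycycline in both of its probe sets. The probe set of type s_at, whose probes are shared between transcripts in the Affymetrix naming, read 9.11, 8.99 and 9.13 for replicates 1, 2 and 3 with doxycycline. Without doxycycline it read 8.74, 8.68 and 8.60. The groups lay 0.25 log2 units apart at their nearest arrays, a gap wider than the range within either group (0.14 with and 0.15 without). The means were 9.08 ± 0.08 with and 8.67 ± 0.07 without (SD, n = 3 each), a 1.32-fold higher level. The difference was 0.40 (SE 0.06, 95% confidence interval 0.25 to 0.55) and did not pass over all probe sets (limma, adjusted p = 0.213). This was the smallest adjusted p among the 10 probe sets.

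The second NEU1 probe set, of type x_at, contains probes that may also bind similar sequences. It read 9.56, 9.50 and 9.52 with doxycycline and 9.27, 9.31 and 9.05 without, again with no overlap. Here the gap of 0.18 was narrower than the range of 0.27 without doxycycline. Its difference was 0.31 (SE 0.08, interval 0.12 to 0.51; limma, adjusted p = 0.477), 1.24-fold. Both probe sets target the same transcript on the same arrays, so they are 2 readings and not 2 replicates. They differed in how much they owed to single arrays. Without replicate 3 lacking doxycycline the s_at difference was 0.36 and the x_at difference 0.23. Over all 6 arrays left out in turn, the s_at value stayed between 0.36 and 0.44 and the x_at value between 0.23 and 0.37.

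The other sialidases had slightly lower means with doxycycline. NEU3 read 6.84, 6.88 and 6.89 with doxycycline and 6.91, 6.92 and 6.93 without. The groups were separated by 0.02 log2 units, with the arrays lacking doxycycline above, at levels near the lower quartile of the arrays. Its difference was -0.05 (SE 0.03, interval -0.13 to 0.03; limma, adjusted p = 0.710). After centring the arrays on their medians the groups overlapped and the difference was -0.03. NEU4 read 7.91, 8.03 and 7.98 with doxycycline and 8.06, 8.04 and 7.93 without, overlapping groups with a difference of -0.03 (SE 0.05, interval -0.17 to 0.10). Without replicate 3 lacking doxycycline NEU4 was at -0.08 and its groups no longer overlapped, and over all arrays left out in turn it ran from -0.08 to -0.0022. The difference between the sialidases' responses was not tested. NEU2, the cytosolic sialidase, was measured outside the member list and lay at -0.04 (SE 0.05).

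In sialic acid synthesis the clearest difference was that of NANS, the synthase that forms the sialic acid skeleton. Its only probe set was of type s_at, with shared probes in the Affymetrix naming, as were those of RENBP and SLC35A1. NANS read 10.63, 10.67 and 10.69 with doxycycline, a range of 0.06. Without it the values were 10.45, 10.37 and 9.81, a range of 0.64, so replicate 3 set most of the spread. All arrays with doxycycline lay above all without, by 0.18 at the nearest. The means were 10.66 ± 0.03 and 10.21 ± 0.35 (SD, n = 3 each), 1.37-fold higher with doxycycline. The difference of 0.45 (SE 0.17, interval 0.02 to 0.89) did not pass (limma, adjusted p = 0.590). Without replicate 3 lacking doxycycline it was 0.25 (SE 0.04; limma, adjusted p = 0.169), still with no overlap. It was 0.57 without replicate 1 and 0.54 without replicate 2 of that group.

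GNE, the enzyme that commits UDP-GlcNAc to the pathway, had no stable direction. It read 8.99, 8.94 and 9.04 with doxycycline and 8.96, 9.18 and 8.32 without. The group without doxycycline held both the highest and the lowest array, so the groups overlapped. The difference was 0.17 (SE 0.22, interval -0.38 to 0.72; limma, adjusted p = 0.786). It turned to -0.08 without replicate 3 and grew to 0.35 without replicate 2 of the arrays lacking doxycycline. Replicate 3 fell 0.75 log2 units below the mean of replicates 1 and 2, and 4.21% of all probe sets deviated there by at least as much.

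CMAS, which activates the sugar, read 10.54, 10.64 and 10.68 with doxycycline and 10.66, 10.41 and 10.55 without. The groups overlapped, with a difference of 0.08 (SE 0.07, interval -0.10 to 0.27; limma, adjusted p = 0.730). It was 0.02 without replicate 2 and 0.14 without replicate 1 of the arrays lacking doxycycline, 0.05 without replicate 3 with doxycycline, and array weights turned it to -0.02. RENBP, on the side branch, read 7.57, 7.56 and 7.65 with doxycycline and 7.50, 7.66 and 7.56 without. Its difference of 0.02 (SE 0.05, interval -0.11 to 0.16) was within the spread of both groups. It was 0.01 without replicate 3 lacking doxycycline, -0.01 without replicate 1 of that group, 0.06 without replicate 2 of that group and -0.01 without replicate 3 with doxycycline.

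Of the transporters, SLC17A5, the lysosomal exporter, had the largest difference of the 10 probe sets and the widest spread. It read 9.98, 10.003 and 9.90 with doxycycline and 9.60, 9.73 and 8.76 without. All arrays with doxycycline were higher, by 0.17 at the nearest, while replicate 3 without doxycycline lay 0.90 below the mean of the other 2 arrays of its group. The means were 9.96 ± 0.06 and 9.36 ± 0.52 (SD, n = 3 each), 1.51-fold higher with doxycycline. The difference was 0.60 (SE 0.26, interval -0.05 to 1.24; limma, adjusted p = 0.669), and 1.03% of all probe sets differed by at least as much in either direction. Without replicate 3 lacking doxycycline it was 0.29 (SE 0.06; limma, adjusted p = 0.181), and the groups remained separated. It was 0.71 without replicate 1 and 0.78 without replicate 2 of that group.

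SLC35A1, the Golgi transporter of CMP-sialic acid, read 10.47, 10.60 and 10.66 with doxycycline. Without doxycycline it read 10.70, 10.38 and 10.76, so the groups overlapped and replicate 3 was here the highest array. The difference was -0.04 (SE 0.11, interval -0.32 to 0.24; limma, adjusted p = 0.932). It was 0.03 without replicate 3, -0.15 without replicate 2 and 0.01 without replicate 1 of the arrays lacking doxycycline, and 0.02 without replicate 1 with doxycycline.

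**Figure D2:**
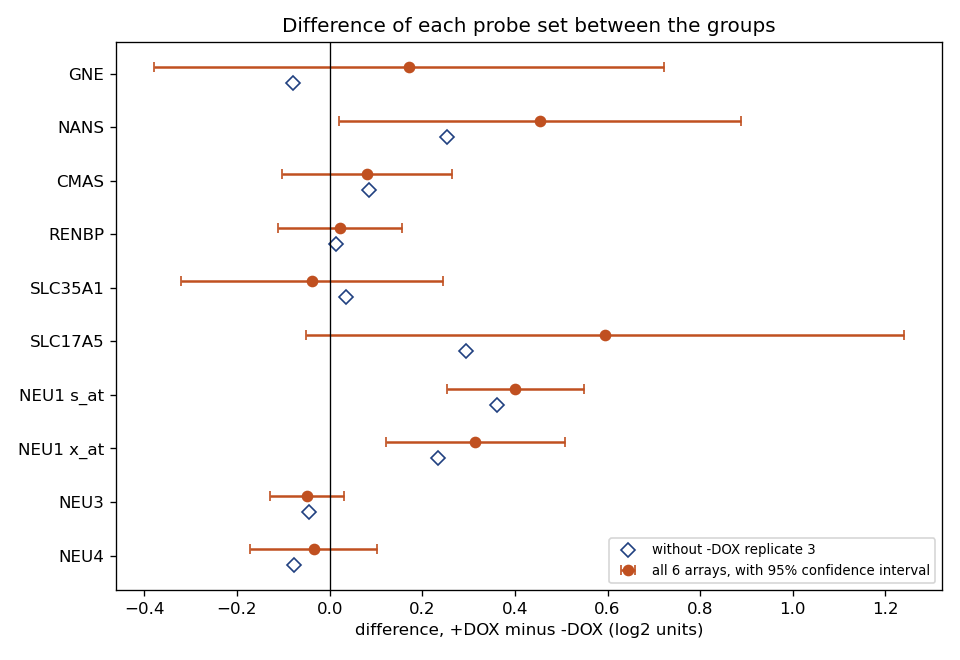
Difference in log2 level, with minus without doxycycline (horizontal axis), for the 10 probe sets; orange points with 95% confidence intervals use all 6 arrays and open diamonds leave out replicate 3 without doxycycline. NANS and SLC17A5 move from 0.45 to 0.25 and from 0.60 to 0.29, the NEU1 s_at probe set from 0.40 to 0.36, and GNE crosses 0.

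Across the family 7 of 10 probe sets had higher and 3 lower means with doxycycline, with a median difference of 0.13. Over all probe sets the median was -0.01 and 45.4% were higher. Without replicate 3 lacking doxycycline the members' median was 0.06, again with 7 higher, beside -0.02 and 38.2% for all. Groups were fully separated in 5 of the 10 probe sets, 4 upward and 1 downward, against 15.8% of all probe sets, 7.55% upward and 8.26% downward. Without that array 6 were separated, 4 of them upward, against 25.0% of all and 8.98% upward. Unadjusted p-values under 0.05 were reached by 3 of 10, NANS and the NEU1 pair, all upward, against 3.26% of all probe sets upward and 4.53% downward. With NEU1 counted once, through its x_at probe set, 6 of 9 genes were higher, beside 415 of 927 named genes. Their median was then 0.08, and 0.03 without replicate 3 lacking doxycycline. By gene 3 were separated upward and 1 downward, beside 74 and 76 of the 927. Because the members were picked with these differences known, nothing is read from such counts. At an adjusted p of 0.05, 0 of 10 passed, with values from 0.213 to 0.932.

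**Figure D3:**
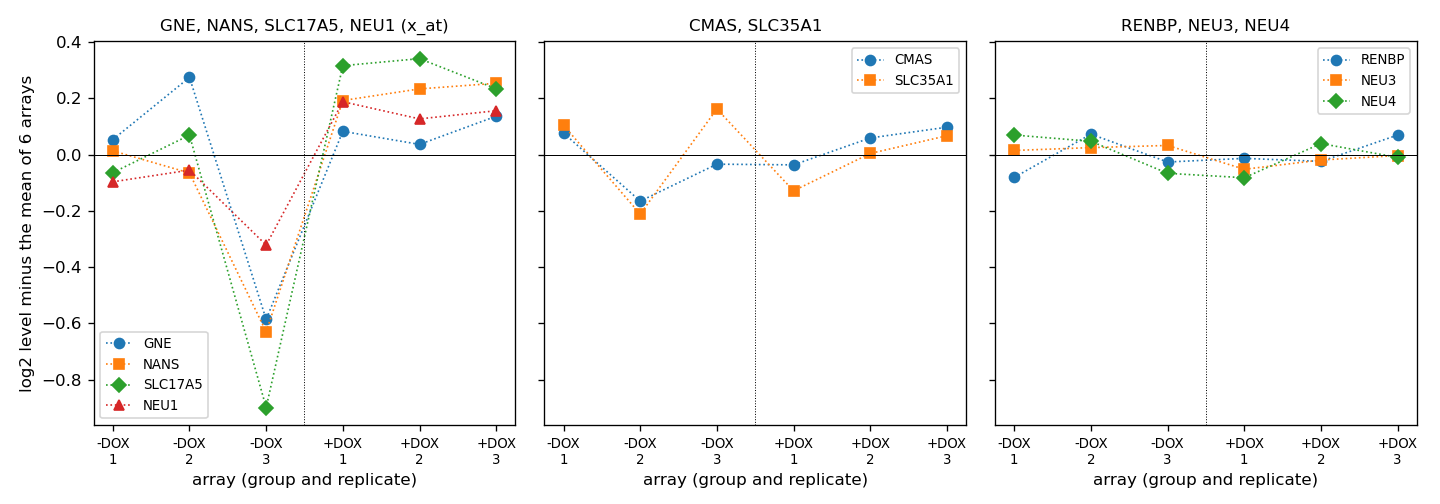
Log2 level of each gene minus its own mean over the 6 arrays (vertical axis) on each array (horizontal axis), for the probe set with the highest mean; dotted lines only join the points of a gene. In the left panel replicate 3 without doxycycline is the lowest array for all 4 genes, whereas CMAS and SLC35A1 in the middle panel have their lowest value in replicate 2 of that group, and RENBP, NEU3 and NEU4 stay close to 0.

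The members followed different courses over the arrays. For GNE, NANS, SLC17A5 and NEU1 replicate 3 without doxycycline was the lowest of all 6 arrays. For CMAS and SLC35A1 replicate 2 without doxycycline was lowest, and after centring each gene on its mean these 2 profiles lay 0.09 log2 units apart (root mean square over 6 arrays). The farthest pair was SLC35A1 and SLC17A5, at 0.51. NEU3 and NEU4 were closest at 0.05, but both hardly varied, with root mean square deviations of 0.03 and 0.06 around their own means.

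By the same distance, the genes outside the family nearest to NEU1 (x_at) were BPHL at 0.03, C1GALT1C1, the chaperone of the core 1 galactosyltransferase, at 0.04, and the BMP antagonist gene NOG at 0.05. BPHL read 9.38, 9.37 and 9.36 with doxycycline and 9.14, 9.20 and 8.84 without. Nearest to NANS were APH1A, a gamma-secretase subunit, at 0.06, ALG14, which helps add the next sugar after the first GlcNAc of the N-glycan precursor, at 0.07, and the ribosomal protein gene RPL34 at 0.07. ALG14 read 8.62, 8.70 and 8.72 with doxycycline and 8.48, 8.52 and 7.72 without, so it shared the low replicate 3. The nearest gene was LGALS3, a galectin, for SLC17A5 (0.06), the galectin gene LGALS1 for GNE (0.07), SLC35F3 for CMAS (0.02) and IGFBP3 for SLC35A1 (0.04). For the flat profiles of RENBP, NEU3 and NEU4 the nearest were ICAM2, IL25 and IL3RA, at 0.01, 0.01 and 0.02. These distances describe 6 shared arrays, and all of the LGALS3, LGALS1, APH1A, ALG14 and RPL34 profiles have their lowest value in replicate 3 without doxycycline. The same holds for BPHL, C1GALT1C1 and NOG, the genes nearest to NEU1.

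The steps around the family were taken from lists of genes by role. The list around UDP-GlcNAc supply, which feeds GNE, had 4 of 9 measured genes higher and 5 lower, 0 past the threshold. Not all of its enzymes work towards UDP-GlcNAc. Its median was -0.12, the value of GNPDA1, and -0.005 without replicate 3 lacking doxycycline. Its members with the smallest p were hexokinase HK1, which read 11.13, 10.97 and 11.16 with and 11.48, 11.29 and 11.38 without, the GlcNAc kinase NAGK and the isomerase GPI. HK1 was separated downward at -0.30, with and without replicate 3. NAGK was separated upward at 0.57, and at 0.37 without replicate 3. GPI lay at -0.27, and at -0.14 without it.

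Sialyltransferases, the users of CMP-sialic acid, had 9 of 20 genes higher and 11 lower, 0 past the threshold and a median of -0.01, which was 0.0006 with 10 higher without replicate 3 lacking doxycycline. ST6GALNAC5 and ST6GALNAC2, which add sialic acid to GalNAc-bearing glycans, differed by 0.17 and 0.28, and by 0.16 and 0.20 without that array. ST3GAL1, which caps the core 1 O-glycan, differed by -0.19, and by -0.13 without it. Groups were separated for 2 genes upward and 2 downward of the 20, beside 15.8% of all probe sets. Other listed genes of the SLC35 family, not all of them known nucleotide sugar transporters, were higher in 12 of 15 and lower in 3. Of these, 0 were past the threshold, and the median of 0.06 was 0.01, with 8 higher, without replicate 3. SLC35E3, an orphan member, was at 0.24, SLC35B1 at 0.31 and SLC35D1, a carrier of UDP-glucuronic acid and UDP-GalNAc, at 0.10. Without replicate 3 they were at 0.26, 0.14 and 0.05.

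Lysosomal enzymes that act beside NEU1 had 8 of 13 genes higher and 5 lower, 0 past the threshold, with a median of 0.03 that turned to -0.02 without replicate 3. Among those with the smallest p were alpha-galactosidase GLA at 0.29 (SE 0.14; 0.14 without replicate 3) and the GM2 activator GM2A at 0.19 (SE 0.13; 0.06 without replicate 3). CTSA, the protective protein that NEU1 needs for its activity, and GLB1, the beta-galactosidase of the same complex, are named for that role after their values were seen. CTSA read 10.96, 10.87 and 11.07 with doxycycline and 10.91, 11.07 and 10.78 without, a difference of 0.05 (SE 0.09). GLB1 read 10.26, 10.14 and 10.27 with and 10.11, 10.07 and 10.33 without, a difference of 0.05 (SE 0.08). Both overlapped between groups. Without replicate 3 lacking doxycycline CTSA turned to -0.02, and GLB1 was at 0.13 with separated groups. Of 5 other genes of sialic acid metabolism 2 were measured, NEU2 and the sialic acid lyase gene NPL, at -0.04 and 0.0027. The 927 named genes split into 415 higher and 512 lower, and their median was -0.01.

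**Figure D4:**
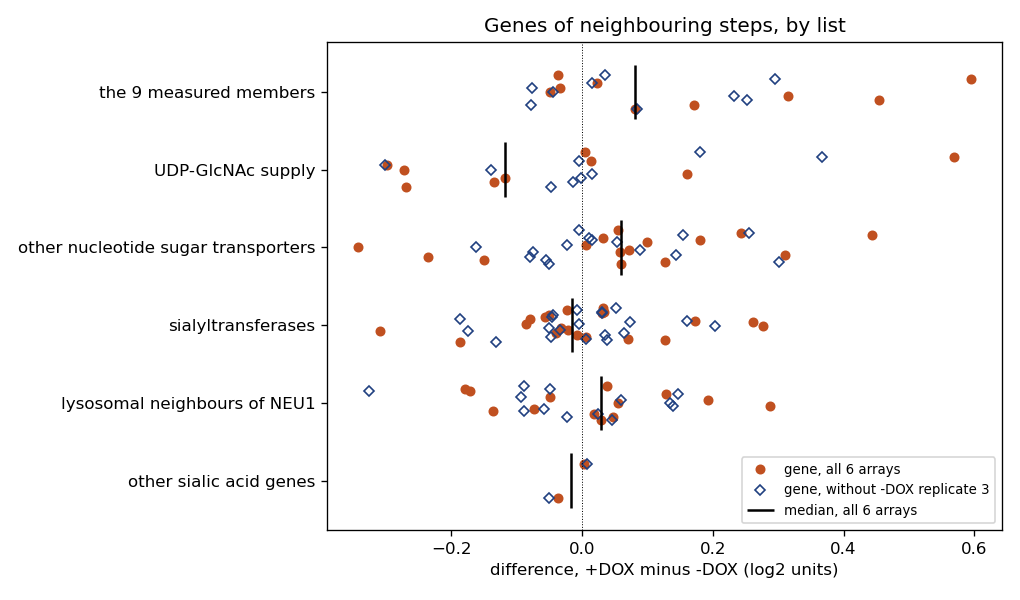
Difference in log2 level, with minus without doxycycline (horizontal axis), of single genes in 6 lists by role; orange points use all 6 arrays, open diamonds leave out replicate 3 without doxycycline, and vertical bars mark the median over all 6 arrays. The medians run from -0.12 for UDP-GlcNAc supply to 0.08 for the 9 measured members, and 43 of 68 diamonds lie closer to 0 than their points.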

How the data were processed

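The deposited table holds log2 expression values, which the authors made with RMA, per the submitters' processing notes; RMA as usually run corrects background, quantile normalizes arrays and summarises probes. Its version, further steps and a genome build are not given in the sources used here. It holds no detection calls. Total RNA was extracted with Trizol and labelled as biotinylated cRNA, per the labels' protocols.

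Probe sets were named through the unversioned RefSeq accession in their identifier and RefSeq's GRCh38.p14 gene table: 1043 of 1259 (82.8%) had 1 symbol. Upstream sequences come from RefSeq's promoter table of that assembly. The comparison used limma (version 3.58.1, under R 4.3.3), with a linear model of an intercept and a group term. The test of the group term was two-sided and moderated, with Benjamini-Hochberg adjustment over 1259 probe sets. The script was tested on simulated data. The number of arrays, 3 in each group, limits the precision. Members, lists and naming rule were chosen with earlier results of these data known. The rule names all member probe sets, the 3 genes of smallest raw p in each list, and the nearest profiles; a further gene that it takes is not reported here. In lists, the probe set with the highest mean represents a gene. Alternatives were a replicate block, array weights, other scalings, a filter, another variance prior, gene means and each array left out.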

Additional observations from a re-analysis of the deposited data

How the results depend on the processing

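Of 194 values recomputed under alternative settings, 182 kept their direction and side of the threshold (counts stayed within 1.5 times), 9 turned and 3 moved. The cause was not tested. Some directions could not turn: the replicate block, the filter and the other variance prior left each member's difference unchanged. Gene means did the same for genes with 1 probe set, so the 182 is no measure of robustness. With array weights, whose fit stopped before full convergence, 1 of 1259 probe sets passed in place of 0, and the difference of CMAS was -0.020. Leaving out 1 array at a time, GNE ran from -0.079 to 0.35, SLC35A1 from -0.15 to 0.034 and RENBP from -0.013 to 0.064. The number of separated member probe sets then ran from 5 to 7, the highest without replicate 2 lacking doxycycline, where 41.4% of all probe sets were separated. NANS ran from 0.25 to 0.57 and SLC17A5 from 0.29 to 0.78. The labels do not say that equal replicate numbers mark a shared culture or day, so the numbers were not taken as pairs. Same-numbered arrays did not deviate together (correlations of deviations -0.147, -0.043 and -0.157 for numbers 1, 2 and 3). Correlations of differently numbered arrays ran from -0.169 to 0.212. With the replicate block 0 probe sets passed, and the NEU1 s_at difference was 0.40 (limma, adjusted p = 0.604). Over the settings that adjusted p (limma) ran from 0.0559 with array weights to 0.903 without replicate 1 with doxycycline. Without replicate 3 lacking doxycycline the medians of the UDP-GlcNAc, sialyltransferase and lysosomal lists were -0.0047, 0.0006 and -0.024, and 1 of 4 colon markers was higher in place of 2. CMAS ran from 0.019 to 0.14 when 1 array was left out. Signal over background is unknown.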
